A study of Macaca mulatta with 12 samples.

Results

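Estrogen added to progesterone was examined in the dorsal raphe nucleus of female rhesus macaques by setting 3 monkeys that carried both hormones against 3 monkeys that carried progesterone alone. These 6 arrays were chosen by their labels from the 12 of the series, which also holds 3 placebo monkeys and 3 monkeys with estrogen alone. Each array was hybridized with RNA from 1 monkey. Crystalline steroid in Silastic capsules had been worn below the skin for 1 month when the tissue was collected. The placebo titles carry the code OVX, for ovariectomized, and the study is known to have used ovariectomized animals throughout. The labels give no strain, age or dose, and they do not say when each capsule was placed. The titles of the 3 progesterone arrays name progesterone alone yet carry the codes EP1 to EP3. Their source names carry P1 to P3, and the group was taken from there. The replicates are separate animals, so the spread holds animal and array variation together.

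The dorsal raphe holds many of the serotonin neurons that project to the forebrain. Estrogen acts largely through the nuclear receptors ESR1 and ESR2, progesterone through PGR, and in many reproductive tissues and brain areas estrogen induces PGR, so the hormones are often given together. Astrocytes, oligodendrocytes, microglia and vessels contribute RNA to such a sample as well, and fewer cells of a type cannot be told apart here from less RNA per cell.

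The probes were designed for human transcripts while the RNA came from macaques, so mismatches lower some readings, and no level is set against that of another gene. A probe set is a group of short probes for 1 transcript, and its intensity is on the linear scale as deposited. Changes are differences of mean log2(intensity + 8.26), given with their standard error (SE) from a limma fit over all 12 arrays, and adjusted p-values are Benjamini-Hochberg values over the 7535 probe sets bright enough to be tested. Groups are called separated where their normalized values do not overlap.

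Array quality differed within the groups compared. The probe set for the middle part of 28S ribosomal RNA read 1354 on both-hormone array 1 and 841 on estrogen array 1, against at most 179 on the other 10 arrays. Those arrays also had the highest GAPDH 3'/5' ratios, 2.05 and 2.45, where the rest reached at most 1.46. Their actin 3'/5' ratios, 1.11 and 1.12, were not raised, with 1.03 to 1.75 on the rest. Both-hormone array 1 also lay at -38 on the first principal component of the 6 arrays, which held 33.2% of their variance, while the other 5 lay between -0.293 and 14.7. For the 28 named probe sets the direction and an unadjusted p under 0.05 were checked without this array, and counts and medians of gene lists are given with their range when single arrays of the 2 groups were left out, where these moved them most. The defining serotonin gene SLC6A4 and the raphe factor FEV were above the filter on low intensity. TPH2 had no probe set of its own, and PGR lay below the filter.

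A single probe set, that of LPCAT4, passed the adjusted threshold of 0.05, which is 0.0133% of those tested. Unadjusted p-values under 0.05 were found for 581 probe sets (7.71%), 306 of them higher (4.06%) and 275 lower (3.65%) with both hormones, while 376.75 would fall there by the threshold alone. The balance between the directions moved with the scaling. It was 52.7% higher after quantile normalization, 57.8% with the values as deposited and 43.5% with a common median. The arrays of the 2 groups were separated for 1186 probe sets (15.7%), 567 higher (7.52%) and 619 lower (8.21%). Full separation of 3 arrays against 3 has p = 0.1 in an exact permutation test, so a share of 0.1 would be separated if groups did not differ. For estrogen against placebo, which asks the same of estrogen without progesterone on arrays not shared with the first comparison, no probe set passed the adjusted limma test, 238 had an unadjusted p under 0.05 (3.16%) and 462 were separated (6.13%). Both of these counts lay below the levels just given for groups that do not differ.

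LPCAT4 encodes an acyltransferase that remodels phospholipids by adding a fatty acid to lysophospholipids. Its probe set read 84.07, 153.9 and 164.5 on the 3 both-hormone arrays and 15.95, 21.7 and 19.67 on the 3 progesterone arrays. The placebo arrays read 157.2, 102.7 and 104.1, and the estrogen arrays 91.44, 131.3 and 120.9. The 3 progesterone arrays thus lay below all other arrays, and the both-hormone arrays lay within the range of the groups without progesterone or near it. With both hormones LPCAT4 was higher by 2.31 ± 0.28 (SE, n = 3 per group) on the log2 scale (limma adjusted p = 0.0259). Estrogen without progesterone gave -0.09 ± 0.28, and the difference between these effects, the interaction, was 2.40 ± 0.40 (limma adjusted p = 0.439). The change without both-hormone array 1 was 2.64 (limma adjusted p = 0.00439). The call was lost when any of the 3 progesterone arrays, both-hormone array 2 or 3, placebo array 2 or estrogen array 3 was left out, with log2 changes of 2.12 to 2.37 and limma adjusted p-values of 0.0581 to 0.23. It was also lost with a larger offset (1.82; limma adjusted p = 0.0592) and in a fit of the 6 compared arrays alone (2.29; limma adjusted p = 0.0737). No other LPCAT4 probe set was present to compare. In the list of phospholipid remodelling enzymes, 26 genes were tested, 16 higher and 10 lower, where 50.4% of all 5499 tested genes were higher. LPCAT4 alone passed the adjusted test, as it did among all genes (0.0182%), and PAFAH1B2, a subunit of an enzyme that breaks down platelet-activating factor, had 0.84 ± 0.25 (limma adjusted p = 0.413), with 292.6, 184.9 and 157.2 under progesterone and 409.4, 295.9 and 438.3 under both hormones.

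**Figure D1:**
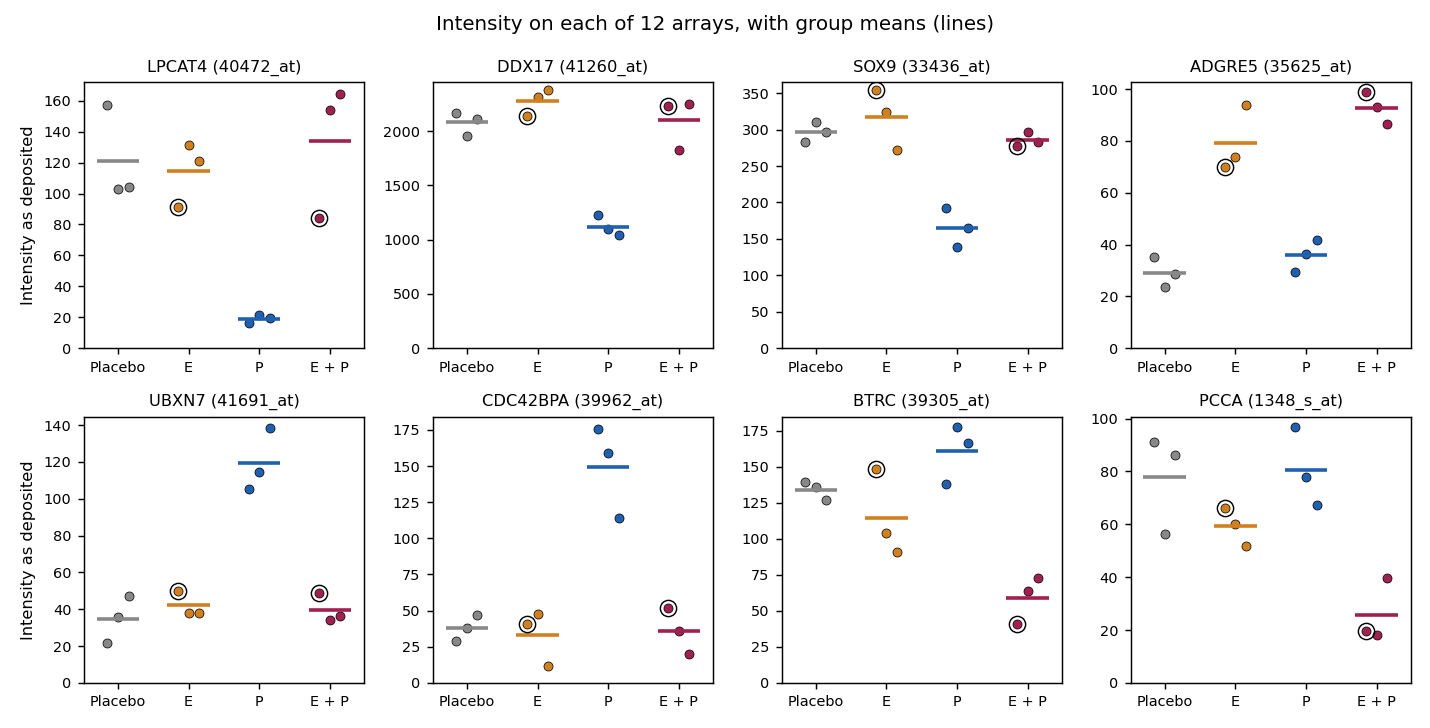
Intensity as deposited (vertical axis, linear, from 0) on each of the 12 arrays for 8 probe sets, by group (E, estrogen; P, progesterone; E + P, both hormones); points are single monkeys, lines are group means, and rings mark the 2 arrays with high ribosomal RNA signal. For LPCAT4, DDX17, SOX9, UBXN7 and CDC42BPA the 3 progesterone arrays stand apart from the other 9, for BTRC and PCCA the 3 both-hormone arrays do, and for ADGRE5 the 6 arrays with estrogen lie above the 6 without.

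A further 27 probe sets were named by the smallest unadjusted p under 0.01 among separated probe sets with 1 gene symbol, which makes 14 higher and 14 lower together with LPCAT4. They were drawn from 74 higher and 60 lower candidates (156 such probe sets, 2.07%, with those lacking a single symbol), and none of the 27 passed the adjusted threshold (limma adjusted p from 0.079 to 0.269). In 21 of the 28 the 3 progesterone arrays lay apart from all 9 others. Over all tested probe sets this held for 278 (3.69%). Among the 1186 separated probe sets it held for 23.4%, against 3.96% in which the both-hormone arrays were the ones apart (47 probe sets, 0.624% of all tested). That 0.624% lies below the share that would be so apart if the groups did not differ. Without the 2 arrays of high ribosomal RNA signal, which leaves fewer arrays to overlap, 23.4% and 3.96% became 24.4% and 13.7% of 2136 separated probe sets. This count was chosen after the data were seen. The progesterone arrays enter both this comparison and that of progesterone with placebo, so the levels in all 4 groups are given side by side. Without both-hormone array 1, all 28 kept their direction and an unadjusted p under 0.05. The kept direction is no independent check, because all 28 are separated and leaving out 1 array can hardly make such groups overlap. Their p-values, too, were chosen as low with this array included.

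DDX17, a DEAD-box RNA helicase that also acts as a coregulator of steroid receptors, was higher with both hormones in all 3 arrays. It read 2232, 1824 and 2254 with both hormones and 1223, 1098 and 1042 with progesterone, a difference of 0.95 ± 0.15 (SE; limma adjusted p = 0.0896). Placebo arrays read 1957 to 2171 and estrogen arrays 2136 to 2383, so progesterone alone was the low group. The other DDX17 probe set gave -0.17 ± 0.17, so the probe sets of this gene disagreed. Of 19 RNA helicases tested, 11 were higher and 8 lower, and DDX17 was the only one of them with an unadjusted p under 0.05 (5.26%, against 7.44% of all genes).

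SOX9, a transcription factor of astrocytes, read 277.8, 296.4 and 282.4 with both hormones and 192.7, 138.9 and 164.9 with progesterone (0.74 ± 0.16; limma adjusted p = 0.228). Placebo and estrogen arrays lay between 271.7 and 354.2, again above every progesterone array. NAPG, the gamma form of the SNAP protein that helps take SNARE complexes apart after vesicle fusion, read 148.2, 89.47 and 126.5 against 46.26, 63.03 and 42.12 (1.11 ± 0.22; limma adjusted p = 0.172). PFN1, the actin-binding profilin, had 2.08 ± 0.45 with 229.3, 281.3 and 195.5 against 30.7, 71.9 and 49.18. CAPZA2, a subunit of the protein that caps actin filaments, and TAOK2, a kinase of the stress-activated pathways, were higher by 0.81 ± 0.19 and 1.10 ± 0.25 without passing the test.

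HSPA2, a member of the 70-kilodalton heat shock family, was read by 2 probe sets. On the first the progesterone arrays read 3.72, 2.621 and 3.756, all under the offset of 8.26, and the both-hormone arrays 111.6, 373 and 165.6 (limma adjusted p = 0.127). This probe set passed the threshold in 1 of 21 alternative fits, that without estrogen array 2, and its limma adjusted p ran from 0.0042 to 0.532. No log2 change is given for it because the low group lies in the range where values carry no order. Estrogen array 2 was also under the offset there, at 4.665, while the other placebo and estrogen arrays read 97.46 to 202.3. The second probe set read 65.37, 46.1 and 55.96 with progesterone and 151.2, 128.6 and 69.32 with both hormones, a difference of 0.91 ± 0.31 (limma adjusted p = 0.484). Both probe sets of HSPA2 were thus separated in the same direction. Of 35 heat shock and chaperone genes, 14 were higher and 21 lower. An unadjusted p under 0.05 was found for 2 of them (5.71%, against 7.44% of all genes), and for 5 without progesterone array 2. The 2 were HSPA2 and CANX, the lectin chaperone calnexin (0.48 ± 0.15), both higher.

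Among the lower probe sets, UBXN7, an adaptor that links the p97 ATPase to ubiquitin ligases, read 48.98, 33.88 and 36.3 with both hormones and 105.2, 114.6 and 138.5 with progesterone. The difference was -1.46 ± 0.21 (limma adjusted p = 0.079). It passed the threshold in 3 of 21 alternative fits, with limma adjusted p from 0.00794 to 0.231 over them. Among the 3 were the fits without placebo array 1 (limma adjusted p = 0.0124) and without placebo array 3 (limma adjusted p = 0.0468). Placebo arrays read 21.42 to 47.11 and estrogen arrays 37.99 to 50.13, so progesterone alone was the high group. CDC42BPA, a kinase that acts downstream of CDC42 on the cytoskeleton, followed the same order with 51.52, 36.2 and 19.91 against 175.7, 158.9 and 114.2 (-1.91 ± 0.34; limma adjusted p = 0.127). Its second tested probe set was separated in the opposite direction, at 0.28. AGGF1, an angiogenic factor, read 72.62, 84.83 and 74.97 against 154.9, 148.8 and 148.9 (-0.95 ± 0.17; limma adjusted p = 0.127).

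LSAMP, an adhesion molecule of limbic neurons, was lower by -0.96 ± 0.20, with 104, 96.47 and 112.3 against 263.3, 151 and 214.7. GRB2, the adaptor that couples receptor tyrosine kinases to Ras, read 413.7, 429.6 and 457.8 against 694.2, 720.3 and 672.2 (-0.67 ± 0.16). PIK3CB, a catalytic subunit of phosphoinositide 3-kinase, had -0.83 ± 0.19, and its other tested probe set 0.02. These genes had limma adjusted p-values of 0.195, 0.266 and 0.266. In LSAMP and GRB2 the progesterone arrays lay above all 9 others, whereas in PIK3CB estrogen arrays 1 and 3 reached into their range.

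In 4 named genes the both-hormone arrays lay apart from the other 9, and in NFKBIB the progesterone arrays did so too, on the other side. Both-hormone arrays were apart in 0.624% of all tested probe sets, below the level for groups that do not differ. BTRC, a substrate receptor of the SCF ubiquitin ligase, read 40.91, 63.64 and 72.65 with both hormones, against 138, 177.5 and 166.1 with progesterone, 126.7 to 139.1 with placebo and 90.81 to 148.2 with estrogen. The difference from progesterone was -1.42 ± 0.23 (limma adjusted p = 0.0944). The brightest BTRC probe set pointed the other way at 1.06 ± 0.39 and its groups overlapped. PCCA, a subunit of the mitochondrial propionyl-CoA carboxylase, read 19.58, 18.07 and 39.71 against 96.64, 77.75 and 67.2 (-1.47 ± 0.27; limma adjusted p = 0.127), with at least 51.64 on every placebo and estrogen array. NFKBIB, an inhibitor that holds NF-kappaB in the cytoplasm, was the higher one of the 4, at 119.5, 127.2 and 119.1 against 44.56, 64.7 and 25.33 (1.34 ± 0.26; limma adjusted p = 0.172). Its placebo and estrogen arrays lay between, at 70.65 to 100.6. LYZL6, a lysozyme-like gene, read 45.22 to 54.29 against 186.7 to 201, while its other tested probe set gave 0.03. The first had a limma adjusted p of 0.195. It passed the threshold in 2 of 24 alternative fits, with limma adjusted p from 0.0124 to 0.627 over them. Among the 2 was the fit without placebo array 3 (limma adjusted p = 0.0468).

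Of the 28 named genes, 9 had another tested probe set, 10 in all. Only 4 of these 10 had the sign of the named one, and HSPA2 was the only gene with a separated probe set in the same direction. Among probe sets below the filter, one of AGGF1 was separated in the direction of the named one, with means of 33.92 with both hormones and 56.41 with progesterone, while another of AGGF1 was not.

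**Figure D2:**
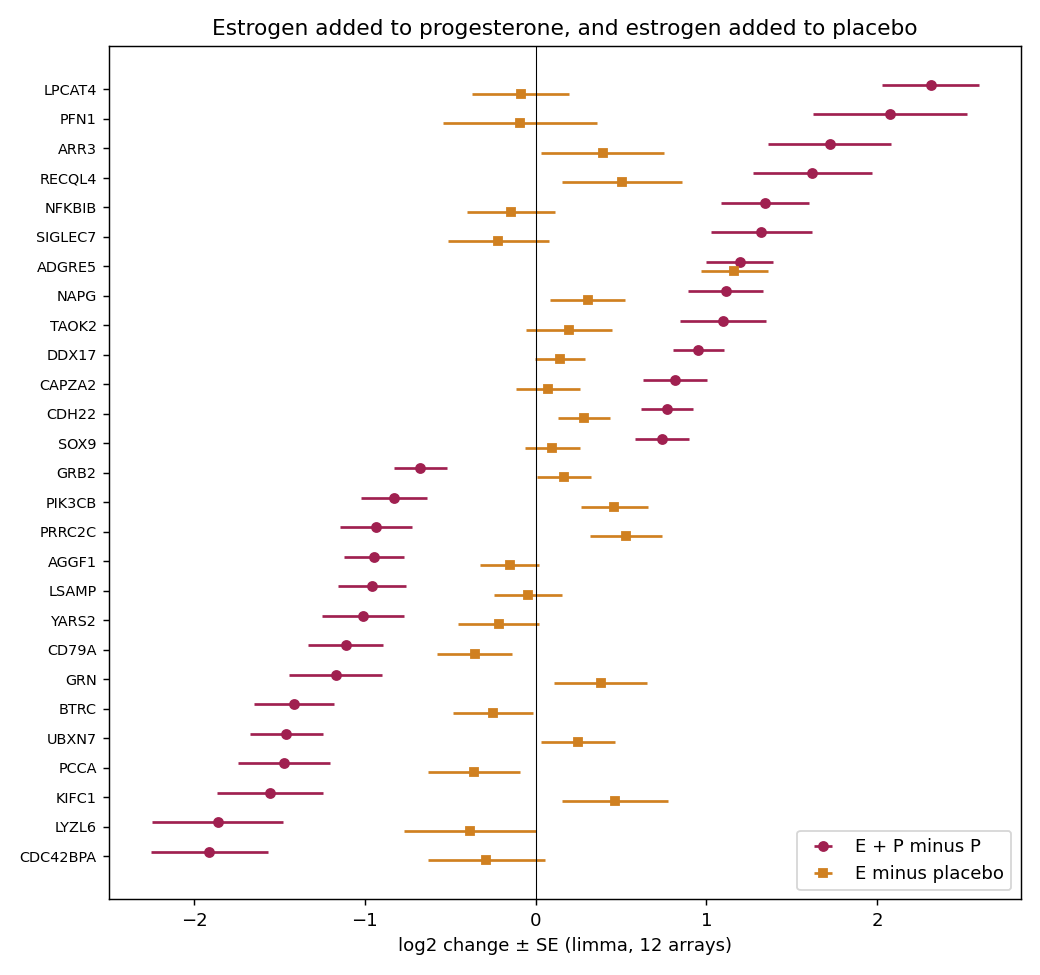
Log2 change with its SE (horizontal axis) for 27 named genes, as both hormones minus progesterone (circles) and estrogen minus placebo (squares); HSPA2 is left out because its progesterone arrays lie under the offset. ADGRE5 has about the same change in both comparisons (1.20 and 1.16), whereas LPCAT4 has 2.31 and -0.09.

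ADGRE5, the leukocyte adhesion receptor CD97, was the named gene whose change was closest with and without progesterone. It read 98.87, 93.04 and 86.58 with both hormones and 29.24, 36.3 and 41.87 with progesterone. The estrogen arrays read 69.93, 73.74 and 93.85 and the placebo arrays 35.25, 23.59 and 28.48, so the 6 arrays with estrogen lay above the 6 without. The change was 1.20 ± 0.20 on top of progesterone (limma adjusted p = 0.0944) and 1.16 ± 0.20 on top of placebo (limma adjusted p = 0.571), and the interaction was 0.03 ± 0.28. Of 11 tested genes of the adhesion receptor family and CD97 ligands, 10 were higher and 1 lower, with a median of 0.15 against 0.004 over all 5499 tested genes. The median was 0.08 without progesterone array 2, 0.09 without both-hormone array 3 and 0.07 with a common median. ADGRB2 (0.50 ± 0.19) and CELSR2 (0.37 ± 0.15) also had an unadjusted p under 0.05, which makes 3 of the 11 with ADGRE5 (27.3%, against 7.44% of all genes). The count of 3 was 1 without progesterone array 2, without both-hormone array 3 or with a common median, and 2 without both-hormone array 1 or 2 or progesterone array 3. For ADGRB2 and CELSR2 estrogen without progesterone gave -0.07 and -0.06.

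All 6 arrays with estrogen lay apart from the 6 without for 25 tested probe sets (0.332%), 14 higher and 11 lower, of which 24 had 1 gene symbol. Some probe sets would be so apart even if estrogen made no difference, and the count was not tested against that level. Of the named genes, ADGRE5, CD79A, CDH22 and ARR3 were among the 25. CDH22, a cadherin of brain tissue, read 220.2, 200.6 and 231.2 with both hormones, 139.1, 113.3 and 115.9 with progesterone, 172.9 to 225.8 with estrogen and 152.4 to 166.8 with placebo. CD79A, a part of the B-cell receptor, was lower with 98.6, 45.22 and 63.31 against 162.3, 130.8 and 158.9. Only 6 of the 24 had an unadjusted p under 0.05 both with and without progesterone: ADGRE5, TIMP1, PCDH1, PRSS53, NSL1 and CD37.

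TIMP1, an inhibitor of matrix metalloproteinases, read 53.12, 78.23 and 51.83 with both hormones and 117, 182 and 230.7 with progesterone. It read 41.79, 50.28 and 87.52 with estrogen and 182.7, 109.1 and 102.6 with placebo, and every array with estrogen was below every array without it. The change was -1.44 on top of progesterone and -1.07 on top of placebo. PCDH1, a protocadherin, read 94.62, 89.28 and 128.2 against 51.43, 61.66 and 54.86, with changes of 0.77 and 0.60. None of these passed the adjusted limma test in either comparison.

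Across the 7535 probe sets the change on top of progesterone and the change on top of placebo had Pearson's r = 0.0217 and a Spearman correlation of 0.0432. Probe sets are not independent, so this is a description across probe sets. The sign was the same for 3940 (52.3%), and for 309 of the 581 with an unadjusted p under 0.05 on top of progesterone (53.2%). Without both arrays of high ribosomal RNA signal r was 0.0341 and the shared sign 53.2%. Among the 28 named genes 17 had the same sign in both. No probe set passed the adjusted limma test for the interaction, and 376 (4.99%) had an unadjusted p under 0.05.

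Of the 6680 tested single-symbol probe sets, 28 had an unadjusted p under 0.05 in both comparisons, 12 in the same direction and 16 in opposite ones. Over all 7535 tested probe sets there were 32, of which 15 (46.9%) had the same direction, where 581 (7.71%) and 238 (3.16%) had such a p in each comparison. In the same direction lay CNTNAP2, a neuronal adhesion protein of the neurexin family, which read 671.7, 643.3 and 575.5 against 527.5, 351.1 and 251.1 (0.78 ± 0.26), and 0.62 on top of placebo. STARD8 had 0.74 and 0.83. In opposite directions lay SLC12A4, a potassium-chloride cotransporter, with 72.1, 109.9 and 69.53 against 38.9, 40.19 and 47.76 on top of progesterone (0.82) and -1.12 on top of placebo. CCNA2, a cyclin, had -0.57 and 1.05, and ELN, the elastin gene, -1.24 and 0.81. PTPN4, a tyrosine phosphatase, had -1.20 and 0.80 on one probe set, which read 218.9, 127.8 and 77.96 with estrogen and 66.74, 67.36 and 78.97 with placebo. On its other tested probe set PTPN4 had -1.12 and -0.15, so the signs there were the same.

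**Figure D3:**
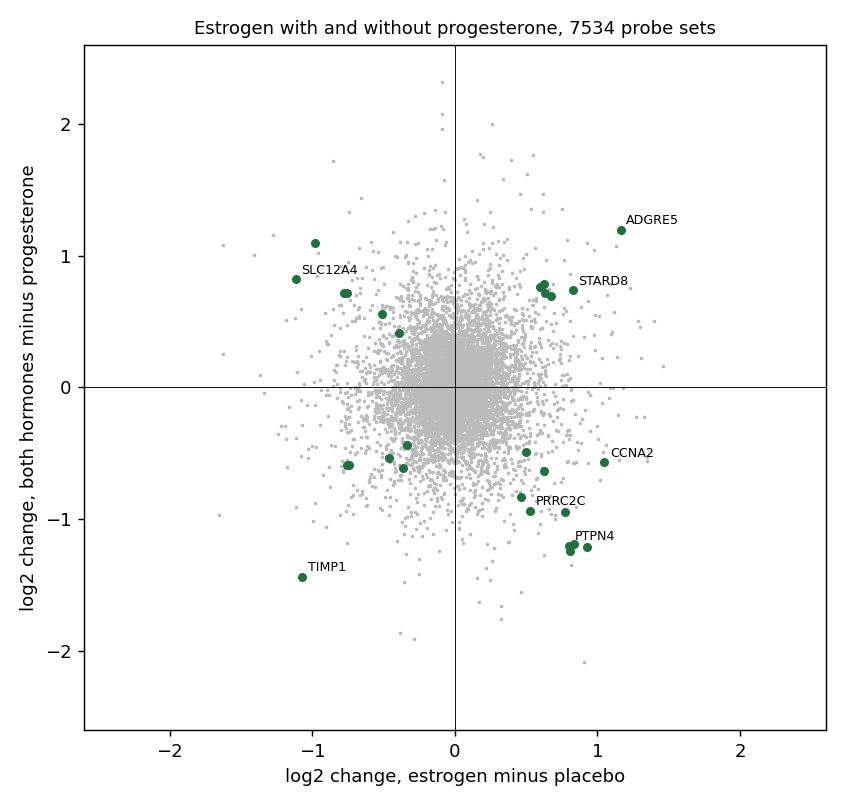
Log2 change of both hormones minus progesterone (vertical axis) against estrogen minus placebo (horizontal axis) for the tested probe sets other than the HSPA2 one whose progesterone arrays lie under the offset; grey points are single probe sets and green points the 28 with an unadjusted p under 0.05 in both. The cloud has no slope to see (r = 0.0217), and the green points fall on all sides, 12 with the same sign and 16 with opposite signs.

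The serotonin system was described over 23 tested genes, 14 higher and 9 lower, with a median of 0.09. None passed the adjusted threshold, and 3 had an unadjusted p under 0.05 (13%, against 7.44% of all tested genes, 3.96% higher and 3.47% lower), all higher. That count rests on single arrays, since it was 1 higher without both-hormone array 1 or any one of the progesterone arrays, and 2 higher with 1 lower without both-hormone array 2, and 2 higher without both-hormone array 3. GATA3, a transcription factor of raphe serotonin neurons, read 197.3, 194.7 and 153.6 against 106.2, 108 and 143.9 (0.55 ± 0.21; limma adjusted p = 0.54). HTR2C, a serotonin receptor, read 283.9, 370.6 and 296 against 252.7, 204.1 and 229.7 (0.42 ± 0.18), and EN2, a midbrain and hindbrain homeobox factor, 105.2, 73.96 and 93.21 against 52.9, 53.72 and 50.01 (0.68 ± 0.28). For GATA3 and HTR2C estrogen without progesterone gave -0.20 and -0.21.

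The serotonin transporter SLC6A4 read 456.2, 494.8 and 220.3 with both hormones and 267.5, 306.9 and 272 with progesterone. Both-hormone array 3 was below all progesterone arrays, so the groups overlapped (0.37 ± 0.26). LMX1B, a factor needed for serotonin neuron identity, read 158.4, 122.8 and 131.3 against 39.31, 146.9 and 36.48, and progesterone array 2 overlapped the other group (1.05 ± 0.49). MAOA, which breaks serotonin down, gave -0.39 ± 0.26, and FEV 0.00 ± 0.35. Over the 9 tested markers of serotonin neurons 7 were higher and 2 lower with a median of 0.27, which was 0.14 without progesterone array 2 and 0.17 without both-hormone array 2. Their summed intensity was 1381 to 1809 with both hormones, 1262 to 1409 with progesterone, 1487 to 1828 with placebo and 1589 to 1740 with estrogen, so the compared groups overlapped.

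The estrogen receptors differed by less than their spread. ESR1 gave -0.30 ± 0.40 and ESR2 0.03 ± 0.19. Of 20 steroid receptors and cofactors 10 were higher and 10 lower. An unadjusted p under 0.05 was found for 2 higher ones (10%, against 7.44% of all genes). That count was 0 without progesterone array 2 or both-hormone array 2 or 3. It was 1 higher without progesterone array 1 or 3, and 1 higher with 1 lower without both-hormone array 1. CREBBP, a histone acetyltransferase and coactivator, read 104.9, 146.9 and 113.8 against 88.78, 60.85 and 93.2 (0.51 ± 0.22), and PGRMC2, a membrane progesterone receptor component, had 0.49 ± 0.22. Both missed the adjusted threshold, with limma adjusted p-values of 0.607 and 0.647. Of 14 tested genes known to respond to estrogen in other tissues, 8 were higher and 6 lower, and none had an unadjusted p under 0.05 in the limma fit.

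GABA genes were mixed, with 6 of 13 higher and 7 lower and a median of -0.05 that changed sign to 0.18 without both-hormone array 1, 0.03 without progesterone array 2 and 0.09 without both-hormone array 3. At an unadjusted p under 0.05 there were 2 higher and 1 lower (23.1%, against 7.44% of all genes). The higher count was 4 without progesterone array 1 and 1 without any other single array of the compared groups. GABRB2, a subunit of the GABA-A receptor, read 104.9, 139.8 and 94.6 with both hormones and 232.9, 200 and 210.1 with progesterone (-0.94 ± 0.24; limma adjusted p = 0.344). The progesterone arrays were above all 9 others. SLC6A11, a GABA transporter, had 0.85 ± 0.31. Of 18 glutamate genes 12 were higher and 6 lower, and 2 higher ones had an unadjusted p under 0.05 (11.1%), but 0 without both-hormone array 2. GLUL, the astrocyte enzyme that makes glutamine, read 625.6, 743.3 and 722 against 464.7, 584.4 and 479.8 (0.45 ± 0.20). ADRA1B, an adrenergic receptor through which noradrenaline excites raphe neurons, had the largest difference among 14 tested catecholamine genes. It read 302.3, 109.5 and 164.8 against 36.65, 46.42 and 57.85 (1.76 ± 0.50; limma adjusted p = 0.413). SSTR2, a somatostatin receptor (-0.86 ± 0.34), was the one neuropeptide gene of 19 with an unadjusted p under 0.05 (5.26%, against 7.44% of all genes).

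Of 28 genes of synaptic vesicles and release, 24 were higher and 4 lower with a median of 0.13, and 1 in each direction had an unadjusted p under 0.05 (7.14%, against 7.44% of all genes). NAPG was the higher one. VAMP1, a SNARE protein of synaptic vesicles, was the lower one, at 1219, 911.9 and 835.3 against 1456, 1523 and 1451 (-0.56 ± 0.19). The list's median was 0.03 without progesterone array 2 and 0.06 without both-hormone array 3. Of 27 potassium channel genes 18 were higher and 9 lower, with a median of 0.11, which was 0.02 without the same array. Without both-hormone array 3 it was 0.05, and without both-hormone array 1 or 2 it was 0.18. The 4 with an unadjusted p under 0.05 (14.8%, against 7.44% of all genes) were all higher, and without both-hormone array 2 there were 2. KCNC4, a delayed rectifier, read 151.6, 88.68 and 128.4 against 82.69, 52.49 and 29.34 (1.10 ± 0.30; limma adjusted p = 0.413). KCNJ6, the GIRK2 channel opened by inhibitory G-protein-coupled receptors, read 207.7, 323.4 and 170.9 against 173.8, 114.5 and 142.2 (0.62 ± 0.24), and HCN2 and KCNN3 had 0.57 ± 0.18 and 0.72 ± 0.32.

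Protein tyrosine phosphatases held differences in both directions, 1 higher and 4 lower at an unadjusted p under 0.05 among 29 (17.2%, against 7.44% of all genes). PTPRS, a receptor phosphatase for proteoglycans on axons, was read by 3 probe sets that gave 1.33 ± 0.31, 1.58 ± 0.45 and 1.21 ± 0.45. On the brightest of them the both-hormone arrays read 295.9, 297.6 and 293.9 and the progesterone arrays 214.3, 77.39 and 77.09. Progesterone array 1 stood above the other 2 progesterone arrays on all 3 probe sets. PTPN4 was lower on both its probe sets, by -1.20 ± 0.34 and -1.12 ± 0.46, with 157.5, 65.21 and 79.94 against 289.7, 184.4 and 208.2 on the first. PTPN1, which acts on insulin and leptin receptors, had -1.10 ± 0.44. None of these passed the adjusted threshold in the fit of all arrays (limma adjusted p from 0.266 to 0.568). Without progesterone array 1 the brightest PTPRS probe set passed, at 1.79 (limma adjusted p = 0.018).

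Genes read by several probe sets were compared within the arrays. This is no independent check, because the probe sets of a gene share the same monkeys and arrays. Whether they also share probes was not examined. Of 740 genes with 2 tested probe sets, both had the same sign in 432 (58.4%), and of the 116 with at least 1 at an unadjusted p under 0.05, in 78 (67.2%). In 8 of the 934 genes with 2 or more tested probe sets, all of them had an unadjusted p under 0.05 in 1 direction. HSPA2, PTPRS and CTBP1, a transcriptional corepressor, were higher, and PTPN4, CDH8, SCAPER, SNRPB and HHLA1 were lower. For HSPA2 this includes the probe set whose progesterone arrays lie under the offset. CDH8, a cadherin of neural circuits, read 106.5, 94.17 and 79.98 against 190.2, 132.4 and 122.2 on one probe set, and 18.88, 58.98 and 54.6 against 94.92, 94.99 and 85.15 on the other. On both probe sets the progesterone arrays lay above all 9 others.

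**Figure D4:**
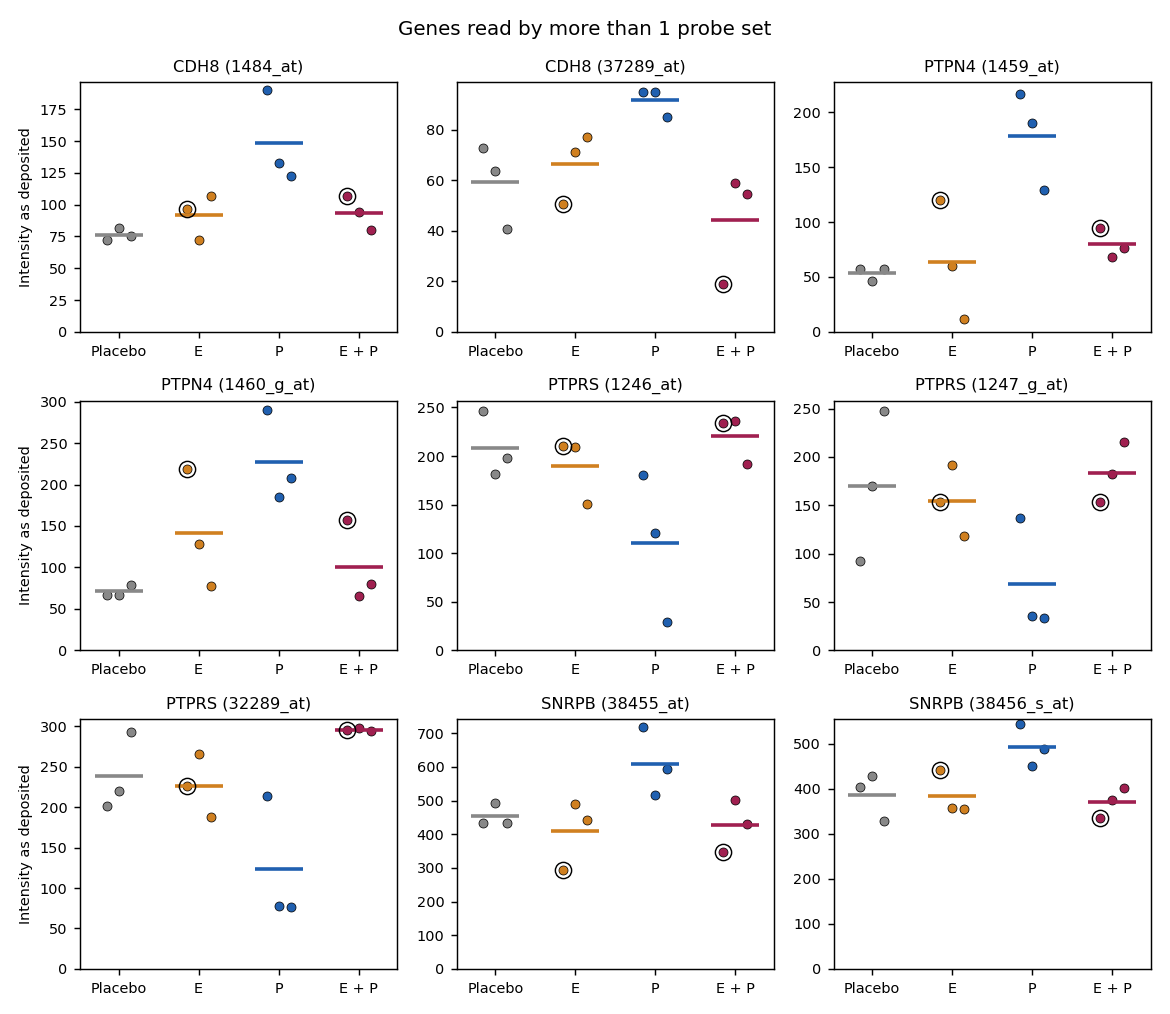
Intensity as deposited (vertical axes, linear, from 0) on each of the 12 arrays for 4 genes read by 2 or 3 probe sets each, by group; points are single monkeys, lines are group means and rings mark the 2 arrays with high ribosomal RNA signal. PTPRS is lower under progesterone on 3 probe sets, with progesterone array 1 above the other 2, and CDH8, PTPN4 and SNRPB are higher under progesterone than under both hormones on both of their probe sets.

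Genes of respiration, ribosomes and splicing were read against the 7.44% of all genes with an unadjusted p under 0.05, which their shares lay near or below. Of 54 oxidative phosphorylation genes 1 was higher and 1 lower at an unadjusted p under 0.05 (3.7%), and of 46 ribosomal protein genes 1 was higher and 2 lower (6.52%). RPS16, a small-subunit protein, read 2772, 2078 and 2482 against 3093, 3787 and 4338 (-0.50 ± 0.18). Of 51 splicing genes 1 was higher and 3 lower (7.84%), among them HNRNPK, an RNA-binding protein, with -0.55 ± 0.19. Immediate early genes were lower in 13 of 17 with a median of -0.15 (-0.09 without both-hormone array 1 and -0.07 without progesterone array 3). FOSB alone of them had an unadjusted p under 0.05 (5.88%), at 131.5, 84.17 and 203.7 against 335.1, 293.8 and 269.6 (-1.17 ± 0.33, limma adjusted p = 0.413). Of 26 neurotrophic factor and receptor genes 12 were higher and 14 lower, with 1 higher and 2 lower at an unadjusted p under 0.05 (11.5%). The higher count was 0 without progesterone array 2 or both-hormone array 3, and 2 without both-hormone array 2. CNTFR, the receptor for ciliary neurotrophic factor, was lower in all both-hormone arrays, with 46.1, 52.91 and 49.08 against 117.2, 78.37 and 113.9 (-0.99 ± 0.29). Among 40 genes of axon guidance and adhesion, 5 were higher and 2 lower at an unadjusted p under 0.05 (17.5%, against 7.44% of all genes). The 5 were 1 without progesterone array 2, 2 without progesterone array 3 or both-hormone array 2, and 3 without both-hormone array 3. NRXN2, a presynaptic neurexin, read 792.4, 966.2 and 1016 against 682.5, 558 and 657.3 (0.56 ± 0.19).

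Markers of other cell types were followed as groups. Astrocyte markers were higher in 10 of 18 and lower in 8. At an unadjusted p under 0.05 there were 3 higher and 1 lower (22.2%, against 7.44% of all genes). The 3 were 1 without progesterone array 3 or both-hormone array 3. S100B went against SOX9, with -0.67 ± 0.25. The summed astrocyte signal was 26139 to 29353 with both hormones and 26110 to 29894 with progesterone. Microglia markers were lower in 9 of 10 with a median of -0.24 (-0.12 without progesterone array 3), while 4 more markers of that list were below the filter. The sum of the 10 was 1852 to 2276 with both hormones and 2290 to 2766 with progesterone, which did not overlap but nearly met. It was 2059 to 2658 with placebo and 1958 to 2139 with estrogen. Of the 10, only TYROBP had an unadjusted p under 0.05 (10%), and its groups overlapped. Endothelial markers had a median of 0.21, which was 0.02 without progesterone array 2, 0.10 without progesterone array 3 and 0.38 without progesterone array 1, and their sums overlapped. Of 9 tested, 2 had an unadjusted p under 0.05, both higher (22.2%). Without progesterone array 2 there were 0 higher and 1 lower, and without progesterone array 1 or both-hormone array 1 there was 1 higher. The cerebellar markers, a sign of neighbouring tissue, had a median of 0.20 (0.09 without both-hormone array 2) with sums of 4860 to 6081 and 5315 to 6135. The part of these cell types in the differences above was not tested.

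**Figure D5:**
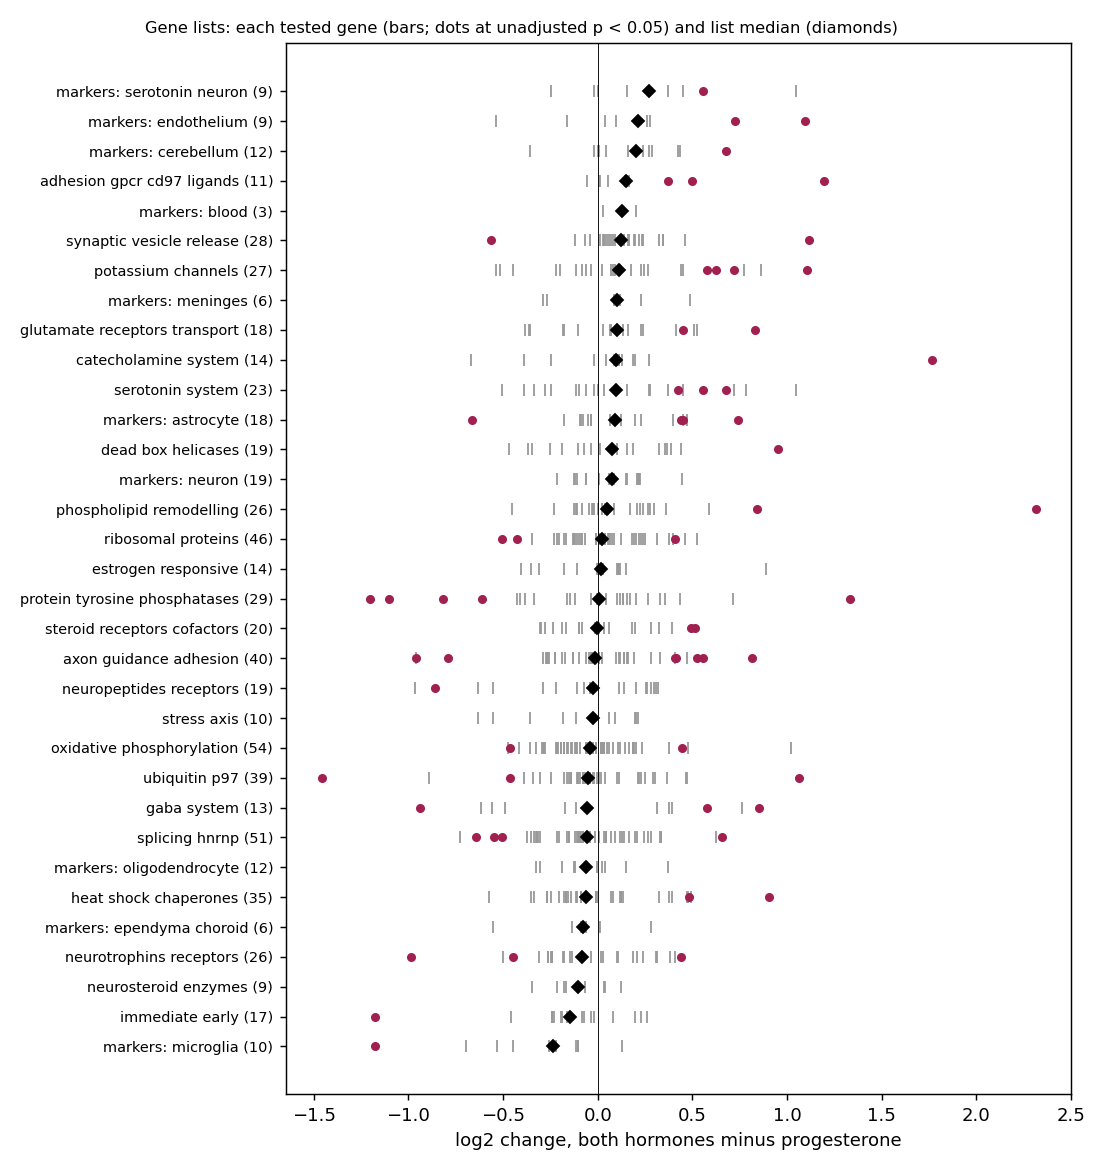
Log2 change of both hormones minus progesterone (horizontal axis) for the tested genes of the lists, ordered by list median, with the number of tested genes in brackets; grey bars are genes, red dots those with an unadjusted p under 0.05 and diamonds list medians. List medians lie between -0.24 for microglia markers and 0.27 for serotonin neuron markers, and genes at an unadjusted p under 0.05 lie on both sides of 0.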

How the data were processed

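RNA of 12 macaque dorsal raphe samples was read on a human Affymetrix array. The authors deposited linear intensity values for each probe set, which, as the values show, they had scaled to a common trimmed mean of about 200.1; the summarising software is not given in the sources used here. Of 12625 probe sets, 67 controls were set aside. Intensities were converted to log2(intensity + 8.26), the offset being their pooled 10th percentile, and quantile normalized. The lowest 40% by mean were left out (5023 of 12558), which left 7535, of which 6680 had 1 symbol in the platform's probe table (5499 genes, each by its brightest probe set). limma 3.58.1 in R 4.3.3 (lmFit, eBayes) was fitted over 4 group means with 2-sided tests, and checked on simulated data. The precision is limited by 3 arrays per group; an exact permutation test of 3 against 3 cannot go below p = 0.1.

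All probe sets past the adjusted threshold were named, then those with the smallest unadjusted p under 0.01 and separated arrays, up to 14 per direction, with their other probe sets and up to 4 members of each list. The comparison and lists were chosen with earlier results of these data known. Replicate numbers were not treated as pairs in the fit reported. Deviations of both-hormone and progesterone arrays of the same number correlated at -0.0602, -0.0414 and 0.0053. Arrays of different numbers gave -0.105 to 0.11. With so few arrays these values cannot show whether the numbers mark a pairing or a shared batch, which was not tested further. Both arrays of high ribosomal RNA signal carried the same number. With a replicate block no probe set passed the adjusted threshold, as given below. Alternatives changed the offset, filter, scaling, variance model, arrays fitted and replicate left out.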

Additional observations from a re-analysis of the deposited data

Results flagged for a closer look

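PRRC2C, a large RNA-associated protein gene, and GRN, the progranulin gene, were lower on every both-hormone array than on every progesterone array, yet higher on every estrogen array than on every placebo array. For PRRC2C the log2 change was 0.529 on top of placebo and -0.93 on top of progesterone, and for GRN 0.38 and -1.17. The difference of these changes was -1.46 ± 0.30 and -1.55 ± 0.39, with limma adjusted p-values of 0.585 and 0.689, so it did not pass the test. PRRC2C read 136.1, 106.4 and 139.6 with both hormones, 227.5, 260.8 and 240.7 with progesterone, 116.8 to 141.9 with estrogen and 53.37 to 104.2 with placebo. Its other probe set gave -0.25 on top of progesterone.

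The probe set for the middle part of 28S ribosomal RNA, a control outside the tests, read 1354 on both-hormone array 1, above the 70.05 to 90.8 of the placebo arrays. Without this array the both-hormone and progesterone groups were compared again, and LPCAT4 passed the adjusted threshold.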

How the results depend on the processing

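The number of probe sets past the adjusted threshold for both hormones against progesterone was 1. It was 0 with a larger offset, with the lowest 60% left out and with a replicate block over the 12 arrays or the 6 compared, 2 with variance trend and robust fitting, 3 with only the 6 arrays, 6 with no filter, 6 with log2 of intensities floored at 1 and no filter, and 12 with array weights. Leaving out single arrays gave 0 to 3, and without progesterone array 1 the call was PTPRS, not LPCAT4. LPCAT4 kept its direction in all 24 alternatives that gave it a value and its call in 13, with adjusted p from 0.000463 to 0.23. Under the replicate block its change was 2.31 (limma adjusted p = 0.0879) over 12 arrays and 2.29 (limma adjusted p = 0.082) over 6. Counts at an unadjusted p under 0.05 were 581 in the fit reported, 455 to 748 leaving out single arrays, 884 with no filter, 876 with the floor and 1009 with array weights. Interaction calls were 0, but 1 with no filter, 1 with the floor, 2 with array weights and 0 to 1 leaving out single arrays. No named gene reversed in any alternative, which the choice of separated probe sets made likely from the start. With 3 arrays per group, depth per array is not known beyond signal, and dim probe sets limit what can be read.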

Other observations

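Below the filter on low intensity, 5 more probe sets passed the adjusted threshold when no filter was used, and for each of them progesterone alone was the group apart. These were chosen after their values were seen. CDKN1B, an inhibitor of cyclin-dependent kinases, read 119.5, 173.7 and 120.7 with progesterone and 26.8, 16.82 and 13.78 with both hormones, and 11 to 33.12 on the placebo and estrogen arrays. Its tested, brighter probe set did not show this, with 108 as the progesterone mean and 120.8 as the both-hormone mean. DLC1 was the only one of the 5 that was lower with progesterone, at 11.43, 10.25 and 6.908 against 77.84, 60.71 and 41.68. SMAD6, an inhibitor of bone morphogenetic protein signalling, read 26.16, 37.47 and 24.25 against 8.918, 4.993 and 4.889, and 11.3 and 18.53 as group means on its other probe set. A probe set with no symbol read 72 to 101.3 with progesterone and at most 9.232 elsewhere. The last was a probe set shared by several H4 histone genes, with 129.4 to 198.5 against 7.13 to 33.51.

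E2F1, a transcription factor of S-phase entry, was among the 47 probe sets (0.624% of all tested) in which the both-hormone arrays lay apart from the other 9. It read 173, 99.04 and 112 with both hormones and 65.83, 32.64 and 32.53 with progesterone, a log2 difference of 1.42 that did not pass the adjusted limma test. MPP2, a scaffold protein of synapses, read 167.8, 174.3 and 158.9 against 88.88, 74.23 and 82.14 (0.93).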
